A study of Mus musculus with 6 samples.

Results

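The transcripts described here are 30 genes of blood vessels and blood in the newborn mouse lens: 18 endothelial genes, 8 genes of pericytes and vascular smooth muscle, and 4 genes of red cells. They were taken by name from a list and matched by symbol to the 27179 Entrez gene identifiers measured, and all 30 were matched. The lenses came from B6/FVB mice at postnatal day 1 (P1), and their RNA gave 3 libraries labelled Gclc KO (KO 1 to 3) and 3 labelled Gclc CON (CON 1 to 3). Gclc encodes the catalytic subunit of the enzyme that starts glutathione synthesis, and the design sets lenses of the 2 labels against each other. The labels name no Cre driver, no altered exons and no sex or litter, and they do not say how many animals gave each library, so a p-value here reflects the scatter of the 6 libraries, which may be technical.

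In the embryo and newborn, the lens is wrapped in a capillary net, the tunica vasculosa lentis, which is fed by the hyaloid artery and regresses after birth. Its tubes are lined by endothelial cells, wrapped by pericytes that carry the PDGF receptor beta, and attended by macrophages that take part in the regression. Red cells inside the tubes bring globin transcripts. The labels name the tissue as lens and do not say which vessels stayed attached at dissection, so hyaloid vessels cannot be told apart here from other vessels. In such bulk RNA, fewer cells of a type and less RNA per cell cannot be told apart either.

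The KO libraries held from 45842484 to 61219009 reads in genes and the CON libraries from 20361430 (CON 2) to 43384443. Crystallins took from 40.5% to 47.5% of the reads in KO and from 59.5% to 68.4% in CON. Levels below are reads divided by the library's size factor (normalised reads). A log2 difference is KO minus CON in deposited variance-stabilised units, where genes with few reads show compressed differences, and its interval covers 95%. Gclc, the targeted gene, had 49.4 ± 28.2 normalised reads in KO and 211 ± 62.3 in CON (SD, n = 3 each; log2 difference -1.01, adjusted p = 0.0387). A list of 12 lens genes, crystallins among them, was detected in every library. Of these, 11 fell and none rose in KO (91.7%, against 11.3% of all genes tested). Their median log2 difference was -1.47, and their summed level was 2.64-fold higher in CON. Under quantile normalisation 5 of the 12 fell and 1 rose, and under scaling by library totals 8 fell and none rose.

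Transcripts of endothelium, pericytes and red cells were found in both KO and CON lenses. Of the 30 genes, 21 had enough reads to be tested, 1 passed the test at an adjusted p under 0.05 (4.76%), and 20 did not. Over all 11468 genes tested, 11.3% passed, 6.91% higher and 4.39% lower in KO. The gene that passed was the alpha globin gene Hba-a2, which was lower in KO. The 14 tested endothelial genes had a median log2 difference of -0.16, the 4 tested pericyte and smooth muscle genes one of 0.28, and the 3 tested red cell genes one of -0.86, against 0.03 over all genes tested. By unadjusted p under 0.05 there were 4, 1 and 3 such genes in these groups. The remaining 9 genes had too few reads to be tested, and their values are given with their groups.

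The sequences upstream of Hba-a2, the gene that passed, and of Alas2, which did not, are shown to describe the red cell genes. Red cell genes are known targets of the GATA1 transcription factor, whose core motif is GATAA. The windows are the 250 bases before the transcription start on the plus strand from RefSeq (GRCm38.p6), at chr11:32296242-32296491 for Hba-a2 and chrX:150547167-150547416 for Alas2. Capitals mark GATAA, or TTATC where the motif lies on the other strand.
Hba-a2: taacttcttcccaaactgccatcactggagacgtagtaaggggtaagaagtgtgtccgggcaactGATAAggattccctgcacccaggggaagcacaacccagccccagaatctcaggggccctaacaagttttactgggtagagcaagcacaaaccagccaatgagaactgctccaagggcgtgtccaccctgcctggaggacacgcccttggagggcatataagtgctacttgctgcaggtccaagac
Alas2: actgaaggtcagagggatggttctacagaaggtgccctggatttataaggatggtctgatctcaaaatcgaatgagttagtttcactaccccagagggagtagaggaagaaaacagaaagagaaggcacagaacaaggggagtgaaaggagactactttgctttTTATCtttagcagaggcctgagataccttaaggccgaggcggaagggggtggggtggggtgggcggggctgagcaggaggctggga
The motif stood 185 bases before the start of Hba-a2 and 86 bases before that of Alas2, and it was also in the window of Hba-a1. All 3 red cell genes with a window held it. However, stretches of 300 bases of Hba-a1 and Hba-a2, which include these windows, are identical over 297 aligned bases. The 3 windows are thus 2 distinct sequences. The motif was also held by 2 of 11 endothelial genes and 2 of 6 pericyte and smooth muscle genes. Over all genes, 22.6% of 32851 windows of 250 bases held it. A match of 5 letters is a description and no sign of binding.

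Hba-a2 was the gene with the most reads per length among the 30. It encodes the alpha chain of haemoglobin. It had levels of 1825, 1320.2 and 867 normalised reads in KO 1, 2 and 3, against 2059, 3701 and 3102 in the CON libraries. Every KO value lay below every CON value, although KO 1 and CON 1 were close. The means were 1337 ± 479 in KO and 2954 ± 831 in CON (SD, n = 3 each), so CON was 2.21-fold higher, and the log2 difference was -1.06 (interval -1.69 to -0.44, adjusted p = 0.0343). The lens genes fell in the same libraries, with a median log2 difference of -1.47, and whether the 2 are related was not tested. The call was lost without KO 2 (adjusted p = 0.101), KO 3 (0.154), CON 2 (0.126) or CON 3 (0.0825), and under scaling by library totals (log2 difference -0.30, adjusted p = 0.413), where the median over all genes moved to 0.86.

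Its neighbour Hba-a1, which encodes the same chain, had 367, 301 and 185 normalised reads in KO, against 512, 727 and 652 in CON. The groups did not overlap. The difference missed the threshold (log2 difference -0.86, interval -1.43 to -0.29, adjusted p = 0.0569) and passed without CON 1 (adjusted p = 0.0369). Of 17 alternative fits, Hba-a1 passed in 3 and missed in the rest. The transcripts of Hba-a1 and Hba-a2 differ at 1 of 538 aligned bases and share a run of 415, so their reads are not safely separate. There were 4.68 ± 0.30 Hba-a2 reads for each Hba-a1 read in KO and 4.62 ± 0.55 in CON (SD, n = 3 each). Summed, the alpha globin genes had 1622 ± 570.1 normalised reads in KO and 3584 ± 940.3 in CON.

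The beta globin genes, which are not among the 30, had smaller point differences, and whether they differed from the alpha globin genes was not tested. Hbb-bs had 1318, 1616 and 1134 normalised reads in KO, against 1616, 2228 and 2648 in CON, with KO 2 and CON 1 at almost equal levels (log2 difference -0.60, adjusted p = 0.130). Hbb-b1 stood at 1051 ± 210.3 in KO and 1861 ± 441 in CON (SD, n = 3 each; log2 difference -0.72, adjusted p = 0.0796). Neither passed the test, and under scaling by library totals both changed sign (0.16 for Hbb-bs and 0.03 for Hbb-b1). The ratio of alpha globin reads to reads of Hbb-bs plus Hbb-b1 was 0.912, 0.567 and 0.537 in KO 1, 2 and 3. Across the CON libraries it was 0.864, 1.01 and 0.799, so KO 1 lay within the CON range and KO 2 and KO 3 below it. Hbb-bt and Hbb-b2 were not matched and are not part of this ratio.

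Alas2 encodes the red cell form of the enzyme that begins haem synthesis. It had 105, 130.45 and 67.7 normalised reads in KO, against 227, 160.5 and 259.6 in CON. The groups did not overlap, and the difference did not pass (log2 difference -0.59, interval -1.17 to -0.02, adjusted p = 0.178). Slc4a1, which encodes the anion exchanger of the red cell membrane, had 1 read in KO 3, 8 reads in CON 3 and none in the other libraries. The embryonic globin genes Hbb-y and Hbb-bh1 had no reads in any library. The globin transcripts found thus included those of adult genes and none of Hbb-y or Hbb-bh1.

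**Figure D1:**
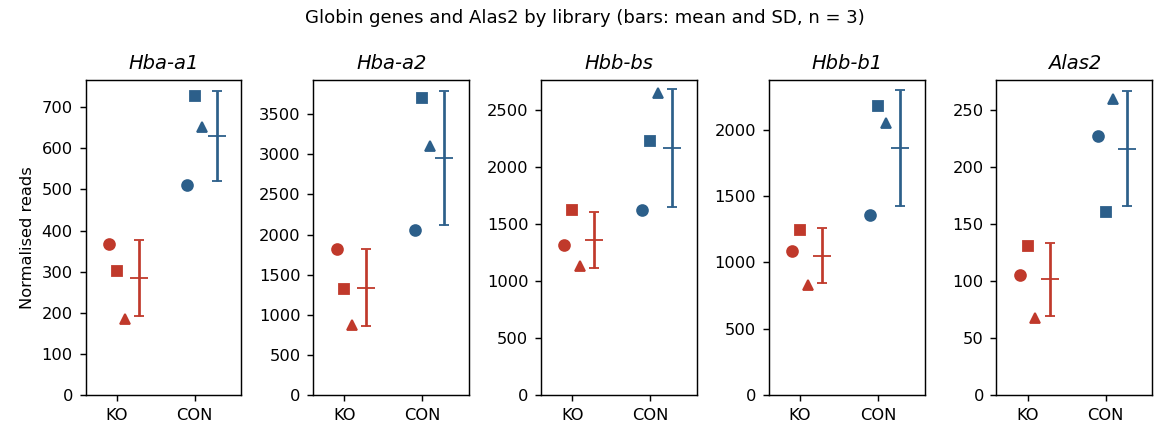
Normalised reads (y axis, from 0, a scale for each gene) of the globin genes and Alas2 in KO and CON libraries, with circles, squares and triangles for libraries 1, 2 and 3 and bars for the mean and SD. For Hba-a2 the KO values run from 867 to 1825 and the CON values from 2059 to 3701, and for Hbb-bs KO 2 and CON 1 lie almost level at 1616.

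Of the other red cell genes on a wider list, 24 of 27 were matched and 8 tested. Of these 8, 1 rose and 1 fell in KO (median log2 difference -0.10). The share that passed was 25%, against 11.3% of all genes tested. Sptb, which encodes the beta chain of red cell spectrin, fell (489 ± 119.9 normalised reads in KO and 1530 ± 614 in CON; adjusted p = 0.0136), and missed the threshold under scaling by library totals (adjusted p = 0.198).

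Among the endothelial receptors, the values of KO and CON lenses overlapped for all but endoglin. Kdr encodes VEGF receptor 2, the main receptor of endothelial growth. It had 106, 90.8 and 132 normalised reads in KO, against 121, 107 and 91.4 in CON, and the groups overlapped closely. The log2 difference was 0.02 with an interval from -0.53 to 0.56. Flt1, which encodes the decoy VEGF receptor 1, had 223, 121 and 45.98 normalised reads in KO and 213, 40.9 and 97.3 in CON (log2 difference 0.08, interval -0.69 to 0.86). Within both groups the highest library had several times the level of the lowest. Flt4, the receptor gene for VEGF-C, was too low to be tested, at 63.4, 16.8 and 15.3 normalised reads in KO and 24.3, 59.8 and 28.025 in CON.

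The angiopoietin receptor gene Tek was well detected, and its groups overlapped. It had 553, 385 and 301 normalised reads in KO, against 457, 302 and 549 in CON (log2 difference -0.06, interval -0.66 to 0.54, adjusted p = 0.923). Its relative Tie1, which modulates Tek signalling, had 135, 120.2 and 12.2 in KO, against 179, 88.1 and 60.5 in CON. KO 3 stood far below the other KO libraries for Tie1, with 23 reads behind it. Robo4, an endothelial guidance receptor gene, was not tested, at 12.7, 13.2 and 17.97 normalised reads in KO and 81.3, 25.2 and 0 in CON.

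Eng was the endothelial gene whose KO values all lay above the CON values. It encodes endoglin, a co-receptor for BMP9 and TGF-beta that activated macrophages also carry. It had 926, 759 and 986 normalised reads in KO, against 656, 538 and 181 in CON, with CON 3 far below the rest. The means were 890.1 ± 118 in KO and 458 ± 247 in CON (SD, n = 3 each), a 1.94-fold difference that did not pass (log2 difference 0.86, interval 0.15 to 1.57, adjusted p = 0.112). It passed without CON 1 (1.11, adjusted p = 0.0407) and under scaling by library totals (2.03, adjusted p = 0.0174), where 28.9% of all genes tested were called higher. These were the only 2 of 18 alternative fits in which Eng passed. Macrophage identity genes were higher in the same KO libraries. Of 18 tested of 20, 12 rose and none fell (66.7% passed, against 11.3% of all genes tested). Their summed level was 26981, 13464 and 8263 normalised reads in KO 1, 2 and 3, and ran from 2426 to 4308 in CON. Within KO this sum was lowest in KO 3, where Eng was highest. Of the defining macrophage markers, Adgre1 (F4/80), Ptprc, Fcgr1 and Mertk had 0 reads in CON 2. Itgam, Cd14 and Mertk had 0 reads in CON 3, while Csf1r and Cd68 had reads in every library. The part of macrophages in the level of Eng was not tested.

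Of the genes of endothelial junctions and surface, Cdh5 alone had separate groups, and none passed the test. Cdh5 encodes VE-cadherin, the adhesion protein of endothelial junctions. It had 10.9, 42.1 and 33.8 normalised reads in KO, against 210.1, 129 and 81.1 in CON. These rest on 19, 70 and 64 reads in KO and 199, 41 and 55 in CON. All KO values lay below all CON values, and the mean in CON was 4.84-fold higher (28.95 ± 16.1 in KO and 140.1 ± 65.2 in CON; SD, n = 3 each). The difference on the shrunken log2 scale was -0.88 (interval -1.50 to -0.26, adjusted p = 0.0691). It passed without CON 3 (-1.05, adjusted p = 0.0456) and with equal library medians (-1.01, adjusted p = 0.0325), where 6.25% of all genes tested were called lower. Of 17 alternative fits, Cdh5 passed in 3 and missed in the rest.

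Pecam1 encodes the junctional adhesion protein CD31, which platelets and macrophages carry too. It had 863, 394 and 80.3 normalised reads in KO, against 213, 271 and 504 in CON. The KO libraries spanned more than the whole CON range, and the interval of the difference was wide (-0.93 to 1.11). Cldn5, the gene of the tight junction protein claudin-5, ran in the same order, at 1309, 609 and 378 in KO and 787, 884 and 745 in CON (log2 difference -0.19, interval -0.91 to 0.53). Esam, an adhesion molecule gene, had 673, 144 and 126 in KO and 244, 415 and 229 in CON. Emcn, which encodes the sialomucin endomucin, had 162, 150.3 and 37.5 in KO and 143, 261 and 145 in CON (log2 difference -0.39, adjusted p = 0.464). For all 4 genes KO 1 was the highest and KO 3 the lowest of the KO libraries.

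Of the genes for secreted and vesicle proteins, Egfl7 came closest to the threshold. It encodes a secreted protein of growing endothelium. It had 915, 521 and 617 normalised reads in KO, against 1079.9, 1633 and 1342 in CON, without overlap. The mean was 684 ± 206 in KO and 1352 ± 277 in CON (SD, n = 3 each), and CON was 1.98-fold higher (log2 difference -0.85, interval -1.40 to -0.30, adjusted p = 0.0514). It passed without KO 1 (adjusted p = 0.0434) or CON 1 (0.0277), and under scaling by library totals the log2 difference was -0.12 (adjusted p = 0.707). Of 18 alternative fits, Egfl7 passed in 5 and missed in the rest. Plvap, which encodes the protein of the diaphragms of fenestrated capillaries, had 74.3, 9.02 and 10.6 in KO and 299, 186 and 20.6 in CON, where CON 3 lay within the KO range (log2 difference -0.91, interval -1.82 to -0.01, adjusted p = 0.183). Without CON 3 it passed (-1.40, adjusted p = 0.0269), the only 1 of 17 alternative fits in which it did. Vwf, the von Willebrand factor gene, had 248, 64.9 and 94.1 in KO and 100.3, 104 and 146 in CON (log2 difference 0.04, interval -0.63 to 0.70).

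The endothelial transcription factor genes were low. Sox18 had 61.6, 13.2 and 9.51 normalised reads in KO, against 90.8, 145 and 26.6 in CON (log2 difference -0.57, interval -1.27 to 0.13, adjusted p = 0.290). Sox17 had 9.21, 12.6 and 3.17 in KO, against 24.3, 34.6 and 29.5 in CON. Its groups did not overlap, but it had too few reads to be tested. Erg had 8, 0 and 5 reads in KO and 0 in all CON libraries. These are too few reads for a fold change.

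**Figure D2:**
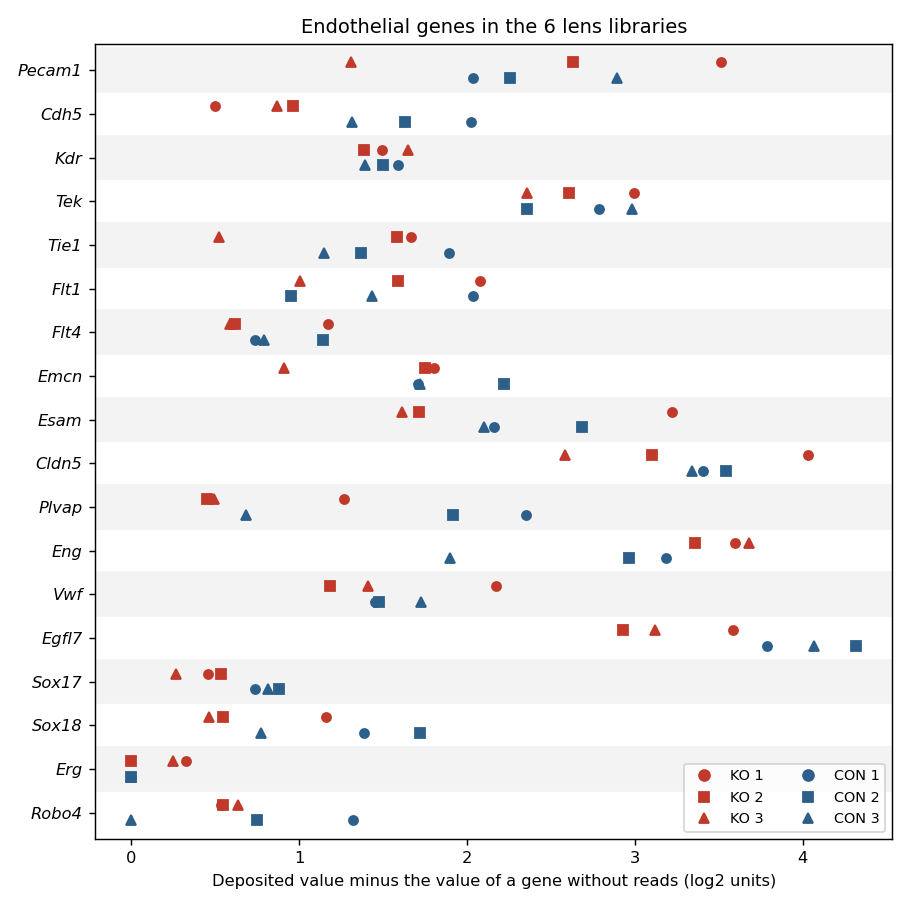
Deposited values of the 18 endothelial genes, less the value of a gene without reads (x axis, log2 units), with KO libraries in red above CON libraries in blue and a shape for each library number. KO and CON points separate for Cdh5, Eng, Egfl7 and Sox17 and overlap for the other genes, and points at 0 can lie on top of each other.

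Per kilobase of transcript, Egfl7 and Cldn5 had the highest mean levels of the endothelial genes, with 492 normalised reads per kilobase in KO and 972 in CON for Egfl7 and 540.5 in KO and 569 in CON for Cldn5. Eng stood at 260.1 in KO and 134 in CON, and Esam at 168 in KO and 159 in CON. On the same scale Kdr stood at 18.476 in KO and 17.997 in CON, and Cdh5 at 7.25 in KO and 35.1 in CON. Hba-a2 reached 2414 in KO and 5332 in CON.

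A wider list held 36 other endothelial genes. Of 28 tested, 1 rose, 1 fell and 26 did not pass (median log2 difference -0.03). The share that passed was 7.14%, against 11.3% of all genes tested. Calcrl, which encodes the receptor for adrenomedullin and CGRP, rose (393, 529 and 402 normalised reads in KO, against 109.8, 126 and 174 in CON; log2 difference 1.07, adjusted p = 0.0182). Mfsd2a, which encodes the lipid transporter of blood-brain barrier endothelium, fell (22.5, 93.8 and 123 in KO, against 337, 437 and 195 in CON; log2 difference -1.15, adjusted p = 0.0389). Under scaling by library totals Mfsd2a missed the threshold (-1.41, adjusted p = 0.158). These 2 genes are also expressed outside endothelium.

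Among the genes of pericytes and smooth muscle, none of the 4 tested passed. Rgs5, a regulator of G protein signalling that marks pericytes, was the most abundant per length (295 normalised reads per kilobase in KO and 271 in CON). It had 2275.5, 908 and 445 normalised reads in KO, against 748, 1444.5 and 1143 in CON. The KO libraries enclosed the whole CON range, as for Pecam1, and the log2 difference was -0.09 with an interval from -1.01 to 0.83. Mcam encodes the adhesion molecule CD146, which endothelial cells carry too. It had 329, 148 and 170.2 in KO, against 119, 81.8 and 47.2 in CON, without overlap, and did not pass (2.61-fold, log2 difference 0.70, interval 0.07 to 1.34, adjusted p = 0.147). Under scaling by library totals it passed (2.22, adjusted p = 0.0470), the only 1 of 17 alternative fits in which it did.

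Kcnj8 and Abcc9 encode the pore and the regulatory subunit of the ATP-sensitive potassium channel of pericytes. Kcnj8 had 177, 125 and 43.9 normalised reads in KO, against 25.3, 157 and 64.9 in CON (log2 difference 0.25, interval -0.49 to 0.99). Abcc9 had 143, 31.3 and 83.0 in KO, against 92.9, 18.9 and 33.9 in CON (log2 difference 0.32, interval -0.37 to 1.01). The values of both overlapped between the groups.

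The other 4 genes of this group were too low to be tested. Pdgfrb, which encodes the receptor that recruits pericytes, had 51.8, 6.61 and 15.9 normalised reads in KO and 54.9, 9.44 and 0 in CON. Cspg4, the gene of the pericyte proteoglycan NG2, had 38.6, 34.9 and 25.4 in KO, against 1.06, 18.9 and 8.85 in CON. All its KO values lay above all CON values, but they rest on 67, 58 and 48 reads in KO and 1, 6 and 6 in CON. Des, which encodes the muscle filament protein desmin, had 98.5, 41.5 and 120 in KO and 45.4, 0 and 0 in CON. The smooth muscle myosin gene Myh11 had 63.4, 49.9 and 0 in KO and 33.8, 0 and 0 in CON. Des was thus found in every KO library and in CON 1 alone of the CON libraries, and Myh11 was missed in KO 3 as well as in CON 2 and CON 3. With no filter on low values, none of the 9 untested genes passed by limma, against 6.53% of all genes then tested, and 1 of them (Des) had an unadjusted p under 0.05 (0.0119), and the smallest adjusted p was 0.104, for Des. Of 10 skeletal and heart muscle genes 9 had reads, 7 were at 0 in all CON libraries and 1, Myl1, was at 0 in all KO libraries too. Their summed level was 516 ± 243 normalised reads in KO and 937 ± 149 in CON, most of it from Tnni1, the one gene tested (464 ± 218 in KO and 895 ± 143 in CON; log2 difference -0.81, adjusted p = 0.0940). The part of muscle cells in these values was not tested.

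**Figure D3:**
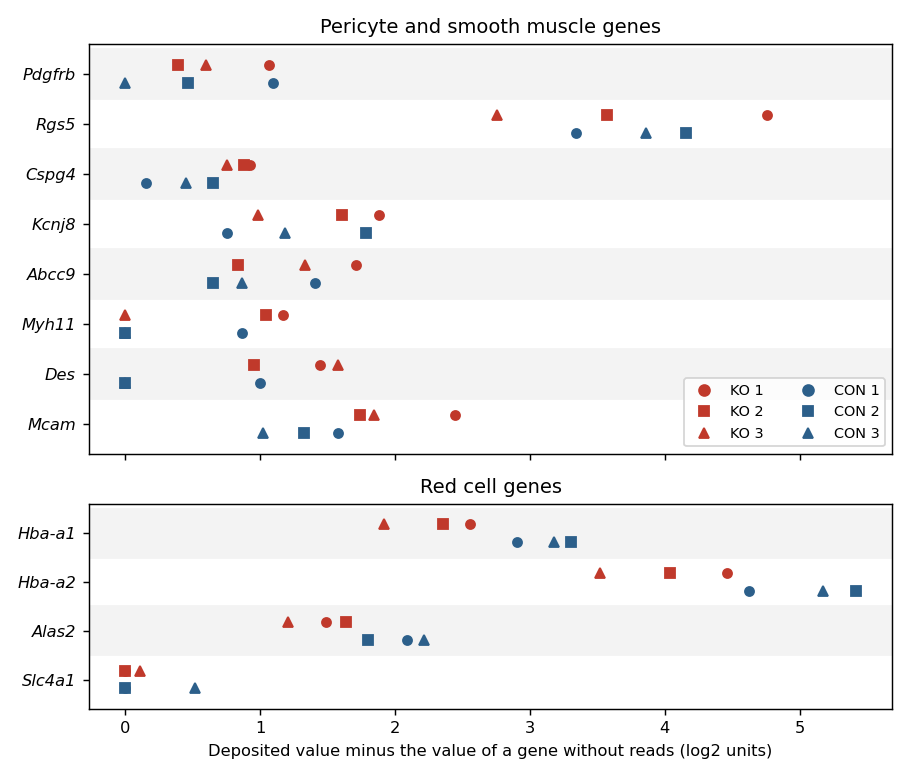
Deposited values of the 8 pericyte and smooth muscle genes (upper panel) and the 4 red cell genes (lower panel), less the value of a gene without reads (x axis, log2 units), with KO in red above CON in blue. The red cell genes other than Slc4a1 separate with KO on the left, Cspg4 and Mcam separate with KO on the right, and the KO points of Rgs5 lie on either side of all CON points.

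Of 18 other mural genes, 10 were tested, none rose and 1 fell (median log2 difference 0.55). The share that passed was 10%, against 11.3% of all genes tested. The gene that fell was Tpm2, which encodes a tropomyosin of muscle (278 ± 126 normalised reads in KO and 792 ± 211 in CON; log2 difference -1.15, adjusted p = 0.0256), and it missed the threshold under scaling by library totals (adjusted p = 0.144). Of 14 mesenchyme genes, 5 were tested, and the PDGF receptor alpha gene Pdgfra fell and the fibrillin gene Fbn1 rose (40% passed, against 11.3%). The summed level of that list was 1379 ± 64.3 in KO and 1427 ± 271 in CON.

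**Figure D4:**
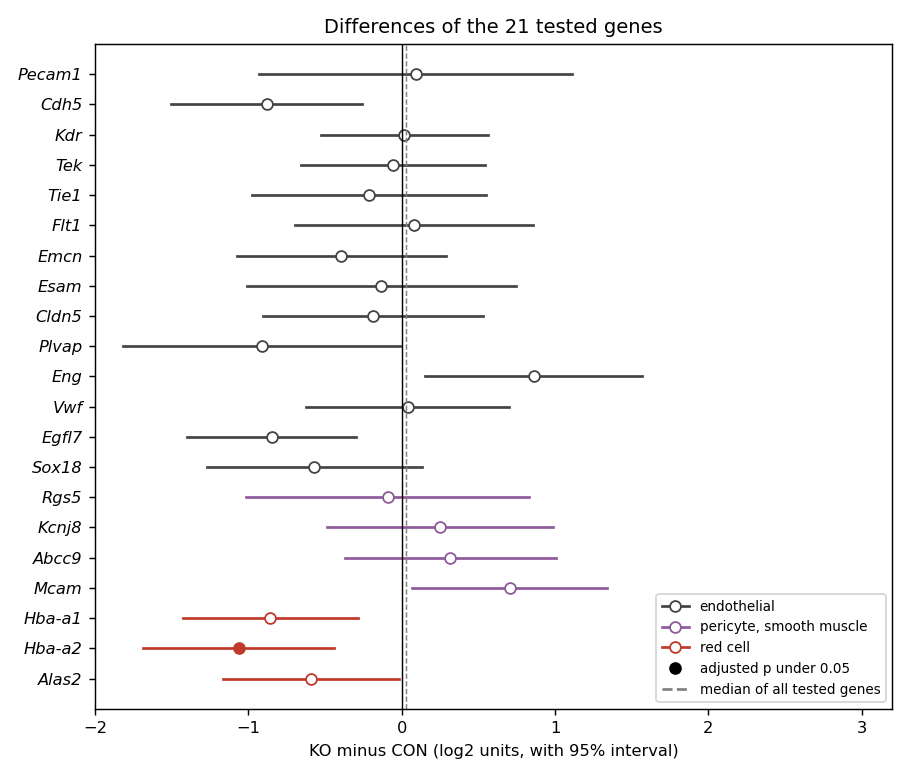
Log2 differences of KO minus CON for the 21 tested genes (x axis), with 95% intervals as lines, filled points for an adjusted p under 0.05 and a dashed line at the median of all genes tested. Only the point of Hba-a2 is filled, at -1.06, and the intervals of 13 genes cross 0.

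Counted by overlap, 5 of the 21 tested genes had all KO values below all CON values (Cdh5, Egfl7, Hba-a1, Hba-a2 and Alas2) and 2 had all above (Eng and Mcam). Over all tested genes, 14.1% lay wholly below and 16.9% wholly above, 31% in all. An unadjusted p under 0.05 was found for 8 of the 21 (38.1%), against 26.4% of all genes tested.

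The vessel genes varied widely among the KO libraries. KO 1 was the highest KO library for 17 of the 21 tested genes (81.0%), among them 11 of 14 endothelial and all 4 pericyte and smooth muscle genes, against 41.7% of all genes tested. KO 3 was the lowest for 13 (61.9%), against 3440 of the 11468 genes tested. The 18 endothelial genes summed to 6349, 3466 and 2903 normalised reads across KO 1, 2 and 3, against 4923, 5224 and 4276 across the CON libraries. The sums of the 8 pericyte and smooth muscle genes ran the same way, at 3177, 1346 and 903 in KO, against 1121, 1731 and 1298 in CON. Rgs5 alone made up 71.6%, 67.5% and 49.2% of these sums in KO 1, 2 and 3. Its share was 66.8%, 83.5% and 88.1% in CON 1, 2 and 3. Of the 4 tested genes of this group, KO 3 was the lowest KO library for 2. The means of the KO and CON sums were 4239 ± 1849 and 4808 ± 485 for endothelial genes (SD, n = 3 each), so the groups differed by less than the spread of the KO libraries.

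The macrophage and platelet sums had the same order of the KO libraries. So did the sums of the 4 red cell genes, at 2297, 1752 and 1120 in KO, against 2797, 4588.5 and 4025 in CON. Most of these sums came from alpha globin (2192, 1621 and 1052 in KO), and Alas2 was highest in KO 2. The sums of Hbb-bs plus Hbb-b1, which lie outside these genes, were also highest in KO 2. Those beta globin sums were 2402, 2858 and 1959 in KO, against 2974, 4403 and 4699 in CON. The macrophage list summed to 26981, 13464 and 8263 in KO 1 to 3, against 3591, 2426 and 4308 in CON. Of 9 platelet genes, 3 were tested and 2 rose (66.7%, against 11.3% of all genes tested passing in either direction). Platelet sums were 4355, 3451 and 1543 in KO, against 684, 1032 and 1566 in CON. Pf4, which macrophages also express, rose (adjusted p = 0.0494), although its KO 3 value lay within the CON range. Ppbp rose too (adjusted p = 0.0228), while Gp9 and Gp6 were at 0 in every library. The retina list did not follow that order, with 10551, 12574 and 11181 in KO, against 5169, 3386 and 4904 in CON. The part of these cells in the vessel gene values was not tested. KO 2 and KO 3 share a style of library name that KO 1 does not have.

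**Figure D5:**
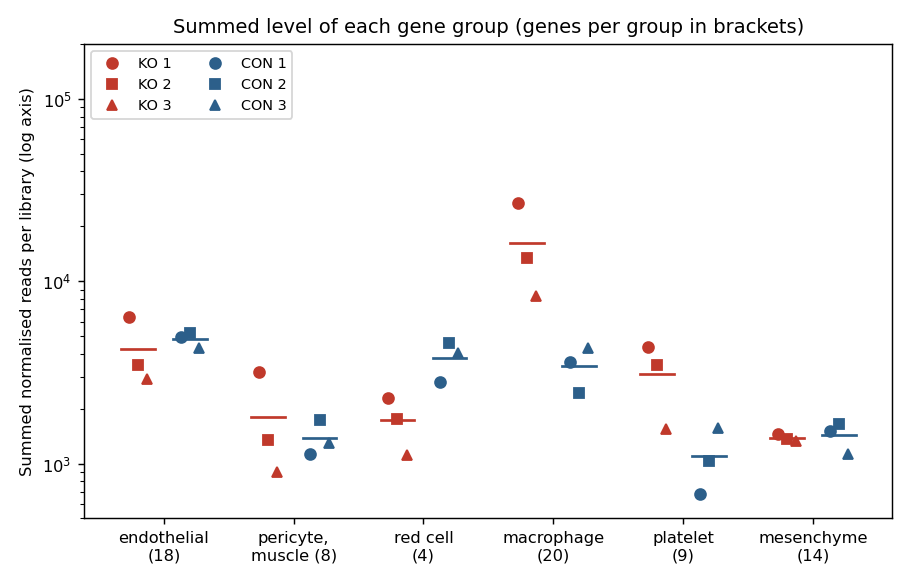
Summed normalised reads per library (y axis, log scale) for the endothelial, pericyte and smooth muscle, red cell, macrophage, platelet and mesenchyme genes, with KO in red left of CON in blue and lines at the means. The endothelial sum is 6349 in KO 1 and 2903 in KO 3, the macrophage sum 26981 and 8263 in those libraries, and the red cell sums of KO all lie below those of CON.

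Ligands and receptors that act on these vessels were counted as a further list. Of 31 genes, 18 were tested, 1 rose and 2 fell (median log2 difference -0.11). The share that passed was 16.7%, against 11.3% of all genes tested. Sema3a, which encodes a semaphorin that repels growing axons and vessels, fell (864, 1558 and 1387 normalised reads in KO, against 4529, 2294 and 4885 in CON; log2 difference -1.46, adjusted p = 0.00998). Thbs1, which encodes the angiogenesis inhibitor thrombospondin-1, fell (100.2, 119.6 and 166 in KO, against 908, 346 and 619 in CON; -1.44, adjusted p = 0.0111). Slit2, which encodes a ligand of ROBO receptors, rose (534, 1330 and 1144 in KO, against 389.5, 299 and 353 in CON; 1.13, adjusted p = 0.0322). Under scaling by library totals Sema3a (-0.87, adjusted p = 0.115) and Thbs1 (-1.49, adjusted p = 0.0601) missed the threshold. Under scaling by reads outside crystallins Slit2 missed it (1.57, adjusted p = 0.1). There Sema3a (adjusted p = 0.0263) and Thbs1 (adjusted p = 0.0204) passed. Vegfa, the main endothelial growth factor gene, had 29.6 ± 7.58 normalised reads in KO and 102 ± 54.0 in CON and did not pass (log2 difference -0.62, adjusted p = 0.178). Pgf, the placental growth factor gene, had 1005 ± 269 in KO and 541 ± 76.7 in CON (0.71, adjusted p = 0.0849).

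For the pathway of hyaloid regression, in which macrophage WNT7B acts on endothelial FZD4 and LRP5 and angiopoietin-2 lowers survival signals, 13 of 15 genes were tested. The cell cycle inhibitor gene Cdkn1a rose and none fell (median log2 difference 0.16). The share that passed was 7.69%, against 11.3% of all genes tested. Cdkn1a responds to many stresses and is not particular to vessels. Angpt2, the angiopoietin-2 gene, had 1216 ± 325 normalised reads in KO and 1372 ± 241 in CON (SD, n = 3 each; log2 difference -0.17, interval -0.70 to 0.36).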

How the data were processed

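RNA was sequenced from 3 KO and 3 CON lens libraries. The submitters' processing notes name Trimmomatic, HISAT2 2.1.0, the mm9 build, featureCounts 1.6.4 and DESeq2 (listed there as version 2.11.0.6). The deposited table holds log2 values after the authors' variance-stabilising transformation. It was inverted to reads: 100% of values came within 0.1 of a whole read, and each size factor matched a median-of-ratios value computed on those reads. Symbols came from RefSeq (GRCm38.p6), which matched 25275 of 27179 identifiers, and transcript lengths from GENCODE M21.

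The comparison used limma 3.58.1 (eBayes with trend; R 4.3.3) on the deposited values of 11468 genes, those whose mean exceeded the table's lowest value by 1 unit or more, and p-values were adjusted over these by Benjamini-Hochberg. The test was checked on simulated data in which every gene had the same set dispersion (scatter beyond that of counting). That check does not measure its accuracy on these libraries. All 30 genes were described. Hbb-bt, Hbb-b2 and Ahsp of the wider red cell list were not used here. From each wider list up to 2 called genes per direction were named, and others beside a result; some genes of these lists are not reported here. The genes and lists were chosen with earlier results of these data known. Equal replicate numbers did not pair: residual correlations were -0.364, -0.128 and -0.140. Alternatives covered filter, scaling, unit, variance model, covariates and libraries.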

Additional observations from a re-analysis of the deposited data

How the results depend on the processing

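Across 18 alternatives, 10 of the 21 tested genes kept the sign of their difference in each one that tested them and 11 changed it in at least 1. Hba-a2 was lower throughout, passed in 6 and missed in 12. The cause was not tested. Hba-a2 missed with no filter (adjusted p = 0.0602), library totals (0.413), reads outside crystallins (0.0879), log2 of normalised reads plus 1 (0.0538), no variance trend (0.0512) and the library name style as a covariate (-0.61, 0.496). CON 2 had the fewest reads, 20361430, and 3 reads there equal 9.44 normalised reads. The library name of CON 2 also ends in a code that no other library shares, while the others all end alike.

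No red cell gene passed in those 6 fits, and 2 were lower with equal medians (717 lower over all genes) or quantile normalisation (606). Lower endothelial genes were 1 with the filter of 3 units and 2 with equal medians or quantile normalisation. With library totals 1 endothelial and 1 mural gene were higher. Without 1 library, lower red cell genes ranged from 0 to 2, lower endothelial genes from 0 to 2 and higher ones from 0 to 1. Over all genes, counts higher were 340 (filter of 3 units), 421 (voom with size factors), 3314 (library totals) and 204 (name style). Counts lower were 85 (library totals), 292 (reads outside crystallins) and 39 (name style). Without 1 library, or without both KO 1 and CON 2, which was chosen after the data were seen, they ran from 287 to 1085 higher and from 139 to 858 lower. With the replicate number as a block, 605 genes were higher and 309 lower and no red cell gene passed (Hba-a2 -1.06, adjusted p = 0.0561), and no KO library correlated best with the CON library of its own number. Without both KO 1 and CON 2, 287 genes were higher, 139 lower, and 0 red cell genes passed.

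Sign changes, none of them called, were as follows. With equal medians: Pecam1 -0.0344, Kdr -0.108, Flt1 -0.0418, Vwf -0.0865. With quantile normalisation: Pecam1 -0.0536, Kdr -0.168, Flt1 -0.160, Vwf -0.175, Abcc9 -0.000498. With voom and size factors: Pecam1 -0.0521, Flt1 -0.264, Vwf -0.00198. With log2 of normalised reads plus 1: Pecam1 -0.0273, Vwf -0.000866. With library totals: Tek 0.666, Emcn 0.0362, Esam 0.632, Cldn5 0.581, Rgs5 0.743. With reads outside crystallins: Tek 0.0284, Flt1 -0.0181, Esam 0.0191, Rgs5 0.147. With the name style: Kdr -0.00137, Tek 0.285, Tie1 0.195, Esam 0.904, Cldn5 0.604, Rgs5 0.969. Without 1 library, or without KO 1 and CON 2, the ranges were -0.495 to 0.676 for Pecam1, -0.0529 to 0.0761 for Kdr, -0.405 to 0.0897 for Tek, -0.466 to 0.153 for Tie1, -0.439 to 0.364 for Flt1, -0.650 to 0.152 for Esam, -0.584 to 0.140 for Cldn5, -0.291 to 0.240 for Vwf, -0.622 to 0.379 for Rgs5 and -0.0529 to 0.547 for Abcc9.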
